A study of Rattus norvegicus with 9 samples.

Results

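The renin-angiotensin and kallikrein-kinin genes measured here were Agt, Ace, Agtr1a, Mme, Enpep, Klk1 and Bdkrb2. Their probes were all the gene probes of a rat kidney array whose gene name in the files equals one of these 7 names. This gave 8 of 30367 gene probes and 7 of 26115 gene names, with a pair of probes for Ace and 1 probe for each other gene. The 8 probes filled 23 spots on each array.

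The arrays measured total RNA from whole rat kidney, 1 kidney per array, after 20 min of warm ischaemia by clamping of an artery (the abdominal aorta in the labels, the renal artery in the study's methods), a model of donation after circulatory death. The kidney donors were Fisher F344 rats. The 5 NP kidneys were taken after the ischaemia and were not perfused, according to the submitters' treatment field and the study, although their titles and descriptions name a perfusion with Belzer solution (BS). The 4 MSC kidneys had the same ischaemia and were then perfused for 4 h at 4°C with BS that carried 3000000 mesenchymal stromal cells (MSC), cultured from the bone marrow of Sprague Dawley rats that carry an EGFP transgene. MSC and NP kidneys therefore differed both in the cold perfusion and in the MSC, which cannot be told apart. The comparison asks which transcripts of the kidney differ after perfusion with MSC. In whole tissue, fewer cells of a type and less RNA per cell cannot be told apart.

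Angiotensinogen, encoded by Agt, is cut to angiotensin I, and angiotensin-converting enzyme (Ace) turns this into angiotensin II, which narrows vessels and raises sodium uptake through the type 1 receptor (Agtr1a). The cell surface peptidases aminopeptidase A (Enpep) and neprilysin (Mme) break angiotensins down further. Tissue kallikreins release kinins from kininogens, and kinins widen vessels and favour sodium loss through the B2 receptor (Bdkrb2). Ace and neprilysin both break down bradykinin, so that the 2 systems share enzymes. In the kidney, kallikrein comes mainly from the connecting tubule, and the peptidases are abundant on the brush border of the proximal tubule.

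The tissue kallikreins of the rat are close paralogs, and the sequences of their probes are shown for the runs of bases they share. The array's Klk1 probe lies on chr1:94696242-94696397 of rn4, plus strand, and these coordinates take in more bases of the genome than the probe is long. Its accession belongs to the gene now called Klk1b3, and the gene now called Klk1 is read by the probe that the array names Klk1c7, on chr1:94628741-94628800. The names of the array are kept below. Capitals mark the longest run of bases shared within each pair, 29 bases between Klk1 and Klk1c4 and 42 bases between Klk1c7 and Klk1c3.
Klk1: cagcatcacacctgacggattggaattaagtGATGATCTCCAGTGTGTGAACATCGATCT
Klk1c4: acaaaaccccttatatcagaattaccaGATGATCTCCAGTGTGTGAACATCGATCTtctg
Klk1c7: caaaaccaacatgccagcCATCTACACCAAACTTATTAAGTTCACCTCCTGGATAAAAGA
Klk1c3: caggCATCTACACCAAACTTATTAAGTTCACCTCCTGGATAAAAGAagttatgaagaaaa
The Klk1 and Klk1c7 probes share no run longer than 7 bases, and start at different places, bases 515 and 704 of their transcripts.

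Ace was the only member with more than 1 probe. The pair is shown because the difference between the groups was not of the same size in both. Both probes lie on the plus strand of chromosome 10 in rn4, at chr10:95380760-95380819 (A_64_P010531) and chr10:95381347-95381406 (A_64_P098230), and start at bases 3631 and 4033 of the transcript. The first is shown whole, and of the second the first 30 bases are shown.
Ace A_64_P010531: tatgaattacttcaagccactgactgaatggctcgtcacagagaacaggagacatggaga
Ace A_64_P098230: tttgagtggaacatacccaagctgggcctt
Exon and coding annotation on rn4 was not used here.

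Between 67.7% and 72.9% of gene spots were well above background on NP arrays and between 65.6% and 74.3% on MSC arrays, and no gene spot was saturated. The median raw intensity of gene spots ran from 594 to 895 in NP and from 577 to 917 in MSC. NP replicates 1 to 3 and MSC replicates 1 and 2 shared the first slide, and the remaining kidneys, NP replicates 4 and 5 and MSC replicates 3 and 4, were on the second. The kidney markers Slc34a1, Lrp2, Umod, Slc12a3 and Aqp2 were well above background on all 9 arrays. All levels below are log2 intensities after normalization between arrays, and a difference is MSC minus NP on that scale. The level of one probe cannot be set against that of another.

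No member probe and no probe of any gene passed the false discovery rate (FDR) of 0.05 with limma, so that the background of calls was 0% of 30367 gene probes, and the lowest FDR of any probe was 0.163. At an unadjusted p under 0.05 limma gave 1 of the 8 member probes, an Ace probe that was lower in MSC, against 2664 gene probes (8.77%) in all and 1225 (4.03%) lower in MSC. The count of member probes was 2 without NP replicate 1, with Klk1 added, and 2 without NP replicate 3 or 4, with Mme added. The shares of all gene probes belong to the fit of all arrays and were not computed with an array left out. Of the members Ace, Agt and Enpep were lower in MSC kidneys and Klk1, Mme, Agtr1a and Bdkrb2 higher, by between 1.35-fold lower and 1.59-fold higher. The median difference was 0.0046 over the 8 member probes and -0.0018 over all gene probes. The groups overlapped for each of the 8 member probes, whereas they did not for 3.51% of all gene probes.

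**Figure D1:**
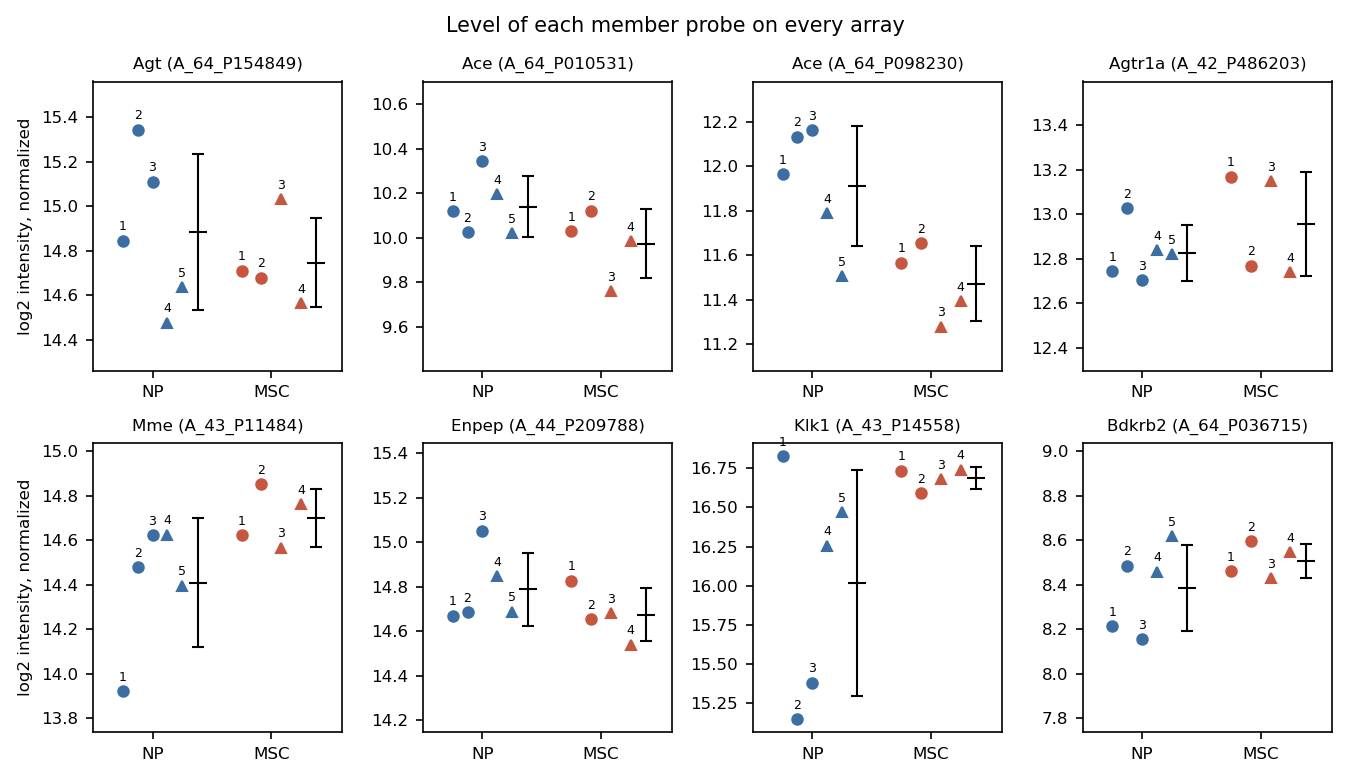
Normalized log2 intensity (vertical axis, with its own range in each panel) of the 8 member probes on every NP (blue) and MSC (red) array. Numbers are replicates, circles are arrays of the first slide and triangles those of the second, and bars show the mean and SD of the 5 NP and 4 MSC arrays. The 4 MSC arrays of Klk1 sit between 16.59 and 16.74 and the 5 NP arrays between 15.15 and 16.83.

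Agt, the precursor of all angiotensins, did not differ between the groups beyond the spread of the arrays. Its probe lies on chr19:54738614-54738673 of rn4, minus strand. Levels were 14.84, 15.34, 15.11, 14.48 and 14.64 in NP replicates 1 to 5 and 14.71, 14.68, 15.03 and 14.56 in MSC replicates 1 to 4. The MSC arrays lay within the NP range, with NP replicates 2 and 3 the highest of the 9. The mean was 14.88 ± 0.35 (SD, n = 5) in NP and 14.75 ± 0.20 (SD, n = 4) in MSC, a difference of -0.14 (SE 0.18, 95% interval -0.54 to 0.27, limma FDR 0.873, exact two-sided permutation p = 0.5). The direction was not the same on both slides, with -0.41 on the first and 0.24 on the second. The difference was -0.02 without NP replicate 2, -0.08 without NP replicate 3 or MSC replicate 4, -0.24 without NP replicate 4 and -0.23 without MSC replicate 3.

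Ace, which makes angiotensin II and breaks down bradykinin, was lower in MSC kidneys, with a difference that did not pass the FDR. The brighter probe, A_64_P098230, read 11.96, 12.13, 12.16, 11.79 and 11.51 in NP and 11.57, 11.65, 11.28 and 11.39 in MSC. Replicates 3 and 4 of MSC were below every NP array, while MSC replicates 1 and 2 were above NP replicate 5. The mean was 11.91 ± 0.27 (SD, n = 5) in NP and 11.47 ± 0.17 (SD, n = 4) in MSC, or 1.35-fold lower in MSC, a difference of -0.44 (SE 0.14, 95% interval -0.76 to -0.12, limma FDR 0.415). The exact two-sided permutation p was 0.0397, and the smallest value that 5 against 4 arrays allow is 0.00794. Ordered by limma's p-value the probe was number 932 of 30367.

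Within each slide every MSC array of this Ace probe was below every NP array, as was the case for 3.26% of all gene probes. No member lay above on both slides, as 3.71% of all gene probes did. The difference was -0.48 on the first slide and -0.31 on the second, and with the slide as a block it was -0.40 (limma FDR 0.269). The exact p was 0.05 or more without NP replicate 2, 3 or 4 and without any 1 of the MSC arrays, while the difference then stayed between -0.50 and -0.37.

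The other Ace probe, A_64_P010531, gave a smaller value. It read 10.12, 10.02, 10.34, 10.20 and 10.02 in NP and 10.03, 10.12, 9.76 and 9.98 in MSC, so that MSC replicates 3 and 4 were below every NP array and the other MSC arrays within the NP range. The mean was 10.14 ± 0.14 (SD, n = 5) in NP and 9.97 ± 0.15 (SD, n = 4) in MSC, a difference of -0.17 (SE 0.09, 95% interval -0.37 to 0.04, limma FDR 0.664, exact permutation p = 0.151). MSC replicate 3 was the lowest array with both Ace probes, and without it A_64_P010531 differed by -0.095. With the mean of both probes taken for the gene, Ace differed by -0.30 (limma FDR 0.476).

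Agtr1a encodes the receptor through which angiotensin II narrows vessels and acts on the tubule. Its probe, on chr17:40629499-40629558 of rn4, minus strand, was spotted 10 times on each array. Levels were 12.74, 13.03, 12.70, 12.84 and 12.82 in NP and 13.17, 12.77, 13.15 and 12.74 in MSC. MSC replicates 1 and 3 were above all NP arrays, and MSC replicates 2 and 4 lay within the NP range. The mean was 12.83 ± 0.12 (SD, n = 5) in NP and 12.96 ± 0.23 (SD, n = 4) in MSC, a difference of 0.13 (SE 0.11, 95% interval -0.12 to 0.38, limma FDR 0.795, exact permutation p = 0.294). The slides gave 0.14 and 0.12. The value was 0.06 without MSC replicate 1, 0.07 without MSC replicate 3 and 0.20 without MSC replicate 4.

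Mme encodes neprilysin, which cuts angiotensin I to a vessel-widening peptide and breaks down bradykinin. Its probe lies on chr2:153114283-153114342 of rn4, plus strand. Levels were 13.92, 14.48, 14.62, 14.63 and 14.40 in NP and 14.62, 14.85, 14.57 and 14.76 in MSC. MSC replicates 2 and 4 were above every NP array, and NP replicate 1 was far below the other 8 arrays. The mean was 14.41 ± 0.29 (SD, n = 5) in NP and 14.70 ± 0.13 (SD, n = 4) in MSC, a difference of 0.29 (SE 0.14, 95% interval -0.03 to 0.61, limma FDR 0.616, exact permutation p = 0.0794). The slides gave 0.40 and 0.15, and without NP replicate 1 the difference was 0.17.

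Enpep encodes aminopeptidase A, which takes angiotensin II on to angiotensin III. Its probe lies on chr2:226728621-226728680 of rn4, minus strand. Levels were 14.67, 14.69, 15.05, 14.85 and 14.69 in NP and 14.83, 14.65, 14.68 and 14.54 in MSC. NP replicate 3 was the highest and MSC replicate 4 the lowest array, with the other 7 in between. The mean was 14.79 ± 0.16 (SD, n = 5) in NP and 14.68 ± 0.12 (SD, n = 4) in MSC, a difference of -0.11 (SE 0.09, 95% interval -0.32 to 0.10, limma FDR 0.787, exact permutation p = 0.317). It was -0.06 and -0.16 on the slides, -0.05 without NP replicate 3 and -0.07 without MSC replicate 4.

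Genes of the proximal tubule, where Mme and Enpep are abundant, are given beside these peptidases. Of 12 listed marker genes 11 were higher in MSC, all 12 well above background on all 9 arrays. The mean level of the list, centred on the 9 arrays, was -0.32 to 0.10 in NP and 0.01 to 0.14 in MSC, and its lowest array was NP replicate 1, as for Mme. The part of this in the Mme difference was not tested. The defining markers Slc34a1 and Lrp2 differed by 0.16 (limma FDR 0.820) and 0.06.

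Klk1, a tissue kallikrein, had the largest difference of the members, with the largest SD over the NP arrays and the smallest over the MSC arrays. Levels were 16.83, 15.15, 15.38, 16.25 and 16.47 in NP and 16.73, 16.59, 16.68 and 16.74 in MSC. All MSC arrays were above 4 of the 5 NP arrays and below NP replicate 1, the highest of the 9. The mean was 16.02 ± 0.72 (SD, n = 5) in NP and 16.69 ± 0.07 (SD, n = 4) in MSC, 1.59-fold higher in MSC, a difference of 0.67 (SE 0.33, 95% interval -0.06 to 1.41, limma p = 0.0692, FDR 0.612, exact permutation p = 0.127). The slides gave 0.88 and 0.35. With an array left out the difference was smallest without NP replicate 2 or 3, at 0.45 and 0.51, and largest without NP replicate 1, at 0.87 (limma FDR 0.286).

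The spread among NP kidneys was shared by the other tissue kallikreins. The array holds 10 probes named Klk1 or Klk1c, of which 8 were well above background on all 9 arrays and Klk1c10 and Klk1c12 on none. All 8 had a difference above 0, from 0.46 for Klk1c9 to 0.98 for Klk1c6, and a difference above 0 was found for 49% of all gene probes. These probes moved together over the same 9 arrays (Pearson's r with Klk1 of 0.945 or more), so they are not 8 separate observations. At an unadjusted p under 0.05 limma gave 3 of the 8 (Klk1c2, Klk1c3 and Klk1c6), against 4.74% of all gene probes higher in MSC, and none passed the FDR. This count was 8 without NP replicate 1, 5 without NP replicate 5, and 1 without NP replicate 2 or 3 or without MSC replicate 2, 3 or 4. The 4.74% belongs to the fit of all 9 arrays, and the share with an array left out was not computed. The SD of the 8 probes was 0.48 to 0.74 over the NP arrays and 0.07 to 0.17 over the MSC arrays.

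In each of these 8 kallikrein probes NP replicates 2 and 3 were the lowest of the 9 arrays. This was so for 1219 of 16712 probes well above background on all arrays (7.29%). The array positions were chosen after the values were seen and are given as a description. Over the 9 arrays Pearson's r with Klk1 was between 0.945 for Klk1c9 and 0.993 for Klk1c2, and was 0.993 for Klk1c4, which shares 29 bases with the Klk1 probe. It was 0.984 for Klk1c7, which shares no more than 7. The Klk1c7 probe, that of the gene now called Klk1, read 17.45, 16.20, 16.50, 17.25 and 17.26 in NP and 17.43, 17.47, 17.43 and 17.59 in MSC, with a difference of 0.55 (SE 0.25, limma FDR 0.579), and of 0.37 without NP replicate 2. How far these probes also bind RNA of the paralogs was not tested. Runs shared between probes cannot tell it, as the Klk1 and Klk1c7 probes start at bases 515 and 704 of their transcripts.

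**Figure D2:**
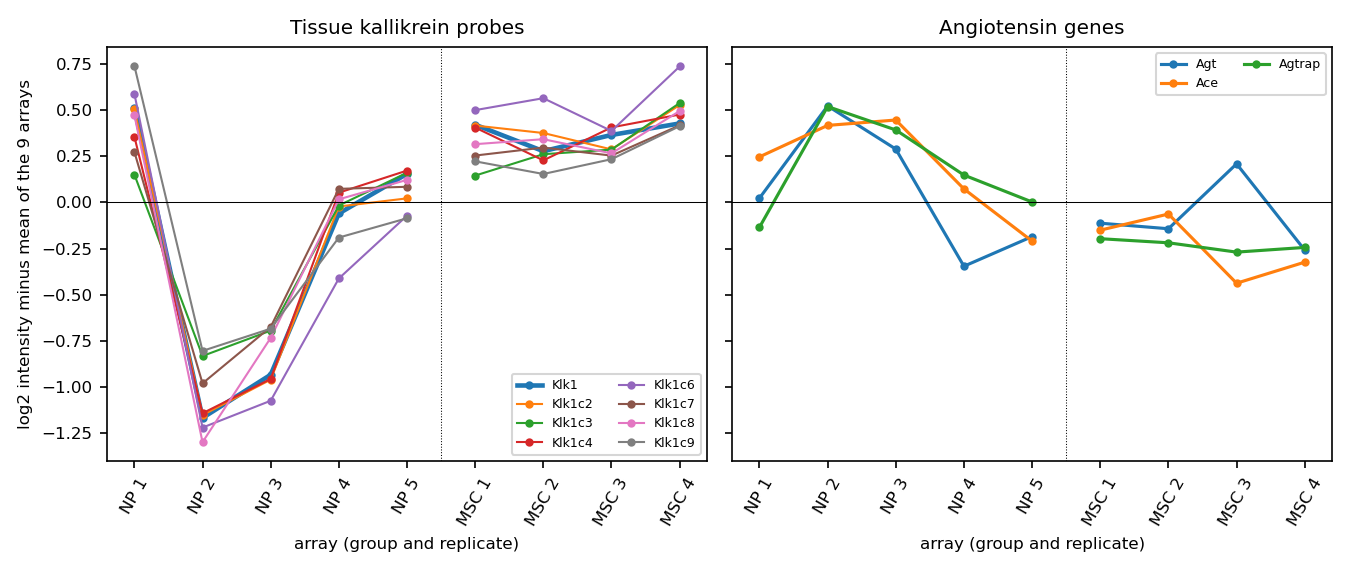
Level on each array minus the mean of the 9 arrays (log2 intensity) for the 8 tissue kallikrein probes well above background (left) and for Agt, the brighter Ace probe and Agtrap (right). Lines join the values of a probe and carry no order. All 8 kallikrein lines are lowest in NP replicates 2 and 3, and Agt, Ace and Agtrap are highest there.

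NP replicates 2 and 3 were the highest of the 9 arrays for 5 of 18 angiotensin probes well above background on all arrays, among them Agt, the brighter Ace probe and Agtrap, and for 2137 of the 16712 probes (12.8%). The other Ace probe was not among them, and for 2 of the angiotensin probes, Atp6ap2 and Rnpep, these arrays were the lowest. Cell type lists also varied between these arrays and the others. The principal cell list of the collecting duct had its lowest values there, -0.62 and -0.35, against -0.06 to 0.52 on MSC arrays, with 6 of its 7 genes higher in MSC and all 7 well above background on all arrays. The list for the distal convoluted and connecting tubule, where kallikrein is made, was -0.22 to -0.04 in NP and 0.02 to 0.24 in MSC, with 5 of 8 genes higher in MSC. Its lowest arrays were also NP replicates 2 and 3, at -0.13 and -0.22, as were those of its genes Calb1 and Slc12a3. The marker Calb1 of this list, a calcium-binding protein, was higher in MSC by 1.13 (limma FDR 0.281, exact permutation p = 0.00794). It did not pass the FDR here, whereas the study reported it as significant. NP replicate 2 was the highest of the 9 arrays for the smooth muscle, mesangium and pericyte list, at 0.58 (-0.16 to 0.25 in MSC, 4 of 9 genes higher in MSC, 8 well above background on all arrays), and for the injured tubule list, at 0.32 (-0.02 to 0.19 in MSC, 7 of 8 higher, 7 well above background). The podocyte list was -0.25 to 0.30 in NP and -0.59 to 0.13 in MSC, with 1 of 8 genes higher in MSC and 7 well above background on all arrays. The part of these cell types in the Klk1, Agt, Ace and Agtrap values was not tested.

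Bdkrb2 encodes the kinin receptor that is present without injury. Its probe lies on chr6:129748780-129748839 of rn4, plus strand, and was close to background, with all of its spots well above it on 2 of 5 NP and 4 of 4 MSC arrays. Levels were 8.21, 8.49, 8.16, 8.46 and 8.62 in NP and 8.46, 8.60, 8.43 and 8.55 in MSC. The MSC arrays lay within the NP range, and NP replicates 1 and 3 were the lowest. The mean was 8.39 ± 0.19 (SD, n = 5) in NP and 8.51 ± 0.08 (SD, n = 4) in MSC, a difference of 0.12 (SE 0.10, 95% interval -0.10 to 0.34, limma FDR 0.782, exact permutation p = 0.310). It was 0.24 on the first slide and -0.05 on the second, 0.06 without NP replicate 3 and 0.08 without NP replicate 1. It was 0.22 after normexp background correction and 0.74 with the background-subtracted signal scaled to the 75th percentile in place of loess.

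**Figure D3:**
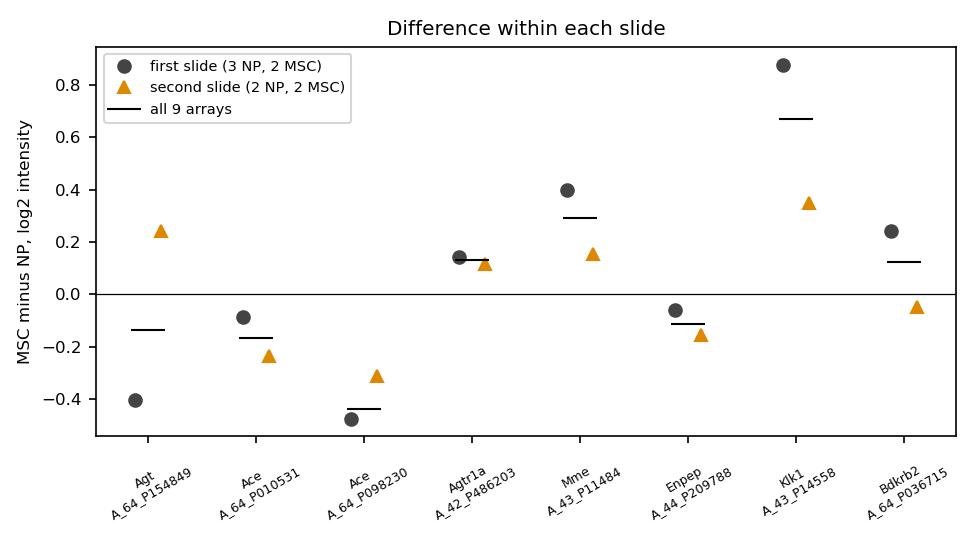
Difference between the MSC and NP means (log2 intensity) of the 8 member probes on the first slide (3 NP and 2 MSC arrays, circles), on the second slide (2 NP and 2 MSC arrays, triangles) and over all 9 arrays (lines). Agt and Bdkrb2 lie on opposite sides of 0 on the slides, with -0.41 and 0.24 for Agt, and the other 6 probes on the same side.

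The rest of the angiotensin system was read from a list of 20 genes, 19 of which were on the array. Of these 12 were well above background on all 9 arrays, 3 on some and 4 on none, the last including the type 2 receptor Agtr2. None passed the FDR, and at an unadjusted p under 0.05 limma gave 2 higher in MSC (Atp6ap2 and Rnpep) and 1 lower (Agtrap), against 4.74% higher and 4.03% lower over all gene probes. The median difference over the 19 genes was 0.00032.

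Agtrap, a protein that binds the type 1 receptor and favours its withdrawal from the cell surface, was lower in MSC. It read 14.37, 15.02, 14.90, 14.65 and 14.51 in NP and 14.31, 14.28, 14.23 and 14.26 in MSC, so that all 4 MSC arrays lay below all NP arrays, as they did for 1.52% of all gene probes. The difference was -0.42 (SE 0.13, limma p = 0.00888, FDR 0.383, exact permutation p = 0.0159). Atp6ap2, an accessory subunit of the vacuolar proton pump, was higher in MSC. It read 13.30, 12.88, 13.28, 13.52 and 13.39 in NP and 13.80, 13.57, 13.70 and 13.54 in MSC. All MSC arrays lay above all NP arrays, which was so for 1.99% of all gene probes, and the difference was 0.38 (SE 0.12, limma p = 0.0119, FDR 0.409, exact permutation p = 0.0159). Rnpep, aminopeptidase B, was higher by 0.29 (limma FDR 0.496), with 3 of the 4 MSC arrays above every NP array. Its lowest arrays were also NP replicates 2 and 3. The Rnpep difference was 0.38 on the first slide, 0.15 on the second and 0.20 without NP replicate 2.

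Agtr1b, the other type 1 receptor of the rat, overlapped between the groups, with 8.76 to 9.85 in NP and 9.19 to 10.08 in MSC and a difference of 0.24 (SE 0.26, limma FDR 0.845). It was 0.08 without NP replicate 1, 0.09 without MSC replicate 3, 0.15 without MSC replicate 4 and 0.39 without MSC replicate 2.

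The rest of the kinin system was read from a list of 25 genes, 21 of which were on the array. Of these 11 were well above background on all 9 arrays, 4 on some and 6 on none, the last including Bdkrb1, the kinin receptor that appears with injury. None passed the FDR, and limma gave 5 at an unadjusted p under 0.05, all higher in MSC, namely Klk1c2, Klk1c3, Kng1, Kng2 and Cpn1, against 4.74% of all gene probes. Klk1c2 and Klk1c3 are kallikreins already counted above. The list does not hold Klk1c4, Klk1c6 and Klk1c7, which were higher in MSC by 0.68, 0.98 and 0.55. Klk1c6 is the other kallikrein counted above. Neither the count of 5 nor the median of the 21 genes takes these kallikreins in. The median difference over the 21 genes was 0.04.

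Kng1 and Kng2 encode kininogens, from which kallikreins release kinins, and by their accessions are now called Kng2 and Kng2l1. Kng1 read 10.24, 9.01, 8.83, 8.79 and 9.07 in NP and 10.06, 10.18, 9.60 and 9.60 in MSC. All MSC arrays were above 4 of the 5 NP arrays and below NP replicate 1, as for Klk1, and the difference was 0.67 (SE 0.29, limma p = 0.0491, FDR 0.567, exact permutation p = 0.0952). Kng2 was near background, well above it on 3 of 5 NP and 4 of 4 MSC arrays, and differed by 0.19 (SE 0.07, limma FDR 0.448). With the background-subtracted signal scaled to the 75th percentile these values were 1.18 and 0.82. Cpn1, a kininase that trims kinins in plasma, read 9.58, 9.59, 9.73, 9.89 and 10.05 in NP and 10.00, 9.98, 10.16 and 9.98 in MSC, with a difference of 0.27 (SE 0.10, limma FDR 0.496). Only NP replicate 5 reached the MSC arrays.

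**Figure D4:**
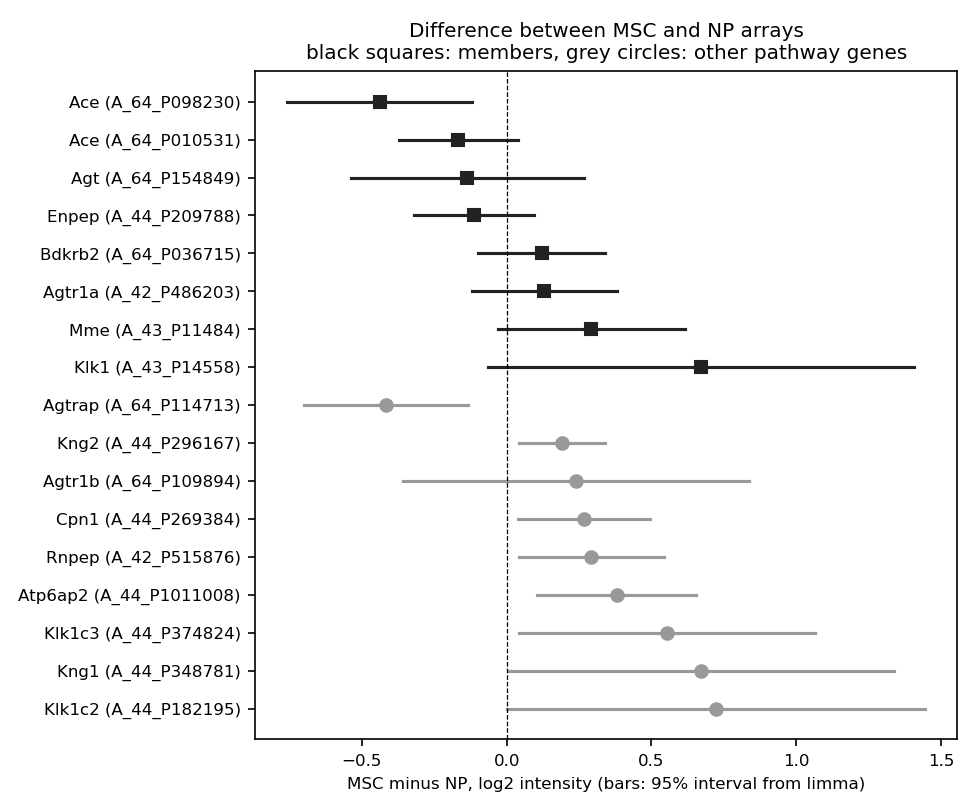
Difference between MSC and NP kidneys (log2 intensity) with its 95% interval from limma for the 8 member probes (black squares) and the other named angiotensin and kinin genes (grey circles). The brighter Ace probe at -0.44 is the only member whose interval leaves out 0, and no probe passed the FDR.

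Fat and blood, which lie beside the kidney's own cells, also differed between the arrays. All 8 listed fat genes on the array were higher in MSC, 5 of them well above background on all arrays, and the list stood at -0.79, 0.17, 1.52 and 1.08 in MSC replicates 1 to 4 and at -0.85 to 0.09 in NP, so that MSC replicates 3 and 4 stood far above the rest. Adipoq, the fat hormone adiponectin, read 10.92, 11.78, 13.83 and 12.63 in MSC and 10.44 to 11.67 in NP, while Plin1, another defining fat gene, was well above background on 1 of the 9 arrays. Fat also makes Agt, which among the MSC arrays was highest in replicate 3 and lowest in replicate 4 and over all arrays highest in NP replicate 2, where the fat list was at -0.43. MSC replicates 3 and 4 were also the arrays that lay below every NP array with both Ace probes. The part of fat in the Agt and Ace values was not tested. The red cell list, which stands for blood left in the tissue, was 0.13 to 0.54 in NP and -1.58 to 0.32 in MSC, with 2 of 7 genes higher in MSC and 5 well above background on all arrays.

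The genes whose levels over the 9 arrays were most like those of each member but Bdkrb2, which was not well above background on all arrays, were sought among the probes well above background on all arrays. For Klk1 they were Klk1c2, Klk1c4 and Klk1c8, with Pearson's r of 0.993, 0.993 and 0.984. For the brighter Ace probe they included Cldnd1 (0.980) and Cnpy1 (0.968), for Mme Psmd10 (0.977) and Lhx3 (0.970), and for Enpep Tmem53 (0.952) and Slc6a20 (0.943). For Agt they were Zfp799 (0.936), Pitpnc1 (0.901) and Zfp407 (0.886), and for Agtr1a they included Jam3 (0.935) and Heph (0.906). LOC681282, a locus without a given name, was also among those of Enpep (0.95). The remaining ones were transcripts without a gene symbol. All of these values rest on the same 9 arrays and are a description.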

How the data were processed

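Total RNA of 9 rat kidneys (5 NP, 4 MSC) was hybridised to 1-colour Agilent arrays. The authors deposited the spot intensity values of each array, as written by Agilent Feature Extraction and without background subtraction in the column used, and a table of log2 values normalized between arrays. The versions of Feature Extraction and of the authors' limma are not given in the sources used here. Groups follow the labels' treatment field.

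Here the mean intensity was log2 transformed and normalized by cyclic loess, as in the study's methods. Control spots and flagged outlier spots (273 to 593 per array) were left out and spots of a probe averaged. The methods' filter, read literally, removes no probe, so all 30367 were kept. On each array Pearson's r with the deposited values was 0.99987 or more. MSC and NP were compared with limma 3.58.1 in R 4.3.3 (package data.table, version 1.17.8), with Benjamini-Hochberg FDR over all gene probes, and for single probes with an exact two-sided permutation test over the 126 splits. The number of arrays limits the precision. The limma fit and the exact permutation test were tested on simulated normalized values, and the steps before them were not.

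The genes named are all members, pathway genes with an unadjusted p under 0.05 or set down with no condition, the 3 probes most like each member that was well above background on all arrays, and chosen cell type markers. Some genes of that rule are not reported here. The lead probe of a gene is the brightest. The members and lists were chosen with earlier results of these data known. Of 30367 probes, 18430 had an accession in a RefSeq name table (GRCr8), and 2719 of these have another name now. Alternatives took other intensity columns, normalizations, filters, probes and variance models, blocks for slide and replicate number, each slide alone, and left out each array in turn.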

Additional observations from a re-analysis of the deposited data

Results flagged for a closer look

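Among 62 groups of values tested for an array that lies far from the others of its group, 3 were found, where chance gives about 3.1. The values are the gap to the nearest array divided by the range of the group.

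Kng1 in NP replicate 1 had a ratio of 0.809, with a level of 10.24 against 8.79 to 9.07 in the other NP kidneys. Without this array Kng1 differed by 0.93 between MSC and NP.

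Cpn1 in MSC replicate 3 had a ratio of 0.893, with a level of 10.16 against 9.98 to 10.00 in the other MSC kidneys.

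The mesenchymal stromal cell list in MSC replicate 2 had a ratio of 0.882, with a value of -0.18 against 0.28 to 0.35 in the other MSC kidneys and -0.57 to 0.22 in NP. All 10 genes of the list were higher in MSC on average, 7 of them well above background on all arrays, and its part in the members' values was not tested.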

How the results depend on the processing

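No member probe and no other gene probe passed the FDR in the 23 of 25 alternatives that gave one, each slide alone giving none. Of 197 values of the members, 2 changed direction, both on the second slide alone, where Agt was 0.24 and Bdkrb2 -0.050. The number of members with an exact permutation p under 0.05 was 1 (Ace) and ranged from 0 to 1 with an array left out. The share of all gene probes at such an exact p was not computed, so this count has no background beside it.

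Over all alternatives the brighter Ace probe stayed between -0.54 and -0.30 and Klk1 between 0.35 and 0.88. With array weights Agt was -0.0015. With median scaling Agtr1a was 0.08 and Enpep -0.18. The other angiotensin and kinin genes at an unadjusted p under 0.05 numbered 8, and 2 with median scaling, 5 with 75th percentile scaling and 3 to 10 with an array left out. The 8 kallikrein probes had 3 such, and 1 with median scaling, 5 with either filter or with trended and robust eBayes, and 6 with a replicate block. The count of other angiotensin and kinin genes does not take in Klk1c4, Klk1c6 and Klk1c7. Between kidneys of the same replicate number, 1 to 4, r of the deviations from the group means was 0.21, 0.32, -0.38 and 0.05. Kidneys of unlike numbers were not compared, and those numbered 3 were on different slides. These values therefore cannot tell whether replicate numbers pair the kidneys. With a replicate block, which also drops the unmatched NP replicate 5, 3 member probes in place of 1 had an unadjusted p under 0.05 (Ace -0.54, limma FDR 0.378, Klk1 0.78, FDR 0.504, and Bdkrb2 0.18, FDR 0.481). These 3 differences equal those without NP replicate 5 and no block. For the alternatives the share of all gene probes at an unadjusted p under 0.05 was not computed, so their counts have no background beside them. The cause of the other shifts was not tested. Signal over background limits Bdkrb2, Kng2, Agtr2 and Bdkrb1.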
